A study of Mus musculus with 8 samples.

Results

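The response of wild-type (WT) lung group 2 innate lymphoid cells (ILC2s) to IL-33 was measured as the difference between the 2 WT libraries treated with IL-33 and the 2 WT control libraries, which are 4 of the 8 libraries of the study. Genes were kept where at least 2 of these 4 libraries held at least 1 FPKM (a level corrected for gene length and library depth), which left 10781 of 22075 genes. The WT cells came from the lungs of C57BL/6 mice that carried floxed Stat3 alleles (Stat3 fl/fl) and no Cre, after a short exposure to papain, an allergenic protease. They were grown for about 5 days with IL-2 at 10 ng/ml and then either received IL-33 at 10 ng/ml for 2 more days or were kept as control, for which the labels do not describe the culture in those days. The other 4 libraries came from Stat3 fl/fl mice with Vavicre (STAT3-KO), a recombinase made in all blood cells, 2 as control and 2 with IL-33 under the same culture. The labels do not say whether replicates were separate mice or cultures, so p-values measure the spread between these libraries, which may be technical.

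ILC2s are tissue lymphocytes without rearranged antigen receptors that respond to alarm signals of damaged epithelium. IL-33 is such a signal. It binds the receptor Il1rl1 (ST2) with the co-receptor Il1rap, and the adaptor Myd88 and kinases of the Irak family then activate NF-kB and MAP kinases. In the lung, activated ILC2s are known for IL-5 and IL-13, the cytokines of eosinophil recruitment and mucus production, and for amphiregulin, a growth factor of epithelial repair.

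Recovered depth was 15843683 to 19905794 reads per library over all 8, and Pearson's r between replicates, over genes and on log2 values, was 0.980 to 0.988. A count of 3 reads per 1 kb equals 0.151 to 0.189 FPKM here, which covers counting error only. The control libraries stood further apart than those with IL-33. Among genes with a group mean of at least 5 FPKM, 123 of 6382 differed by over 2-fold between the control libraries and 17 of 6035 between the IL-33 libraries. Examples are Rnf187, at 392 and 80.3 FPKM in the control libraries, and Kit, the stem cell factor receptor, at 11 and 31.1. Of the 14 defining markers of ILC2s, all were expressed. Arg1, arginase, was at 525 and 508 FPKM in control and 510.5 and 496 with IL-33, and Klrg1, an inhibitory lectin receptor, at 931 and 822 FPKM in control and 884 and 943 with IL-33. Several single markers of other cells were near 0: the highest value in the 4 WT libraries was 0.259 FPKM for Cd3e (T cells), 0.878 for Lyz2 (macrophages) and 1.17 for Cd79a (B cells), and Ncr1 (NK cells), Epx (eosinophils) and Cma1 (mast cells) were listed at 0. The 14 T cell markers summed to 642 to 689.6 FPKM in control and 239 to 247 with IL-33, most of it Trbc2, a constant segment of the T cell receptor, and 4 of the 7 tested fell. Other marker lists held expressed members as well. The only macrophage and monocyte marker that passed the filter, Cd68, rose (difference 2.17). So did the only such granulocyte marker, Ccr3 (1.47, from 0.546 and 0.984 to 3.45 and 4.3 FPKM). Of 3 tested epithelial and stromal markers, 2 rose and 0 fell. Of the 9 B and plasma cell markers, Ighm, the IgM heavy chain, held most of the control sum of 57.7 to 59.4 FPKM and fell from 49.7 and 48.4 to 3.12 and 2.64 FPKM, and Cd79b, a B cell receptor chain, rose (difference 0.80), a call lost without control library 2 or without either IL-33 library. With IL-33 the list summed to at most 23.9 FPKM. NK cell and ILC1 markers summed to 48.7 to 63.7 FPKM in control and 52.6 to 58.3 with IL-33, most of it Cd226, and ILC3 markers to 68.5 to 79.9 FPKM in control and 67.7 to 73.6 with IL-33, most of it Lta4h. Red blood cell markers summed to 19.1 to 19.3 FPKM in control and 4.64 to 5.79 with IL-33, most of it Hba-a1, which fell. The part of other cells in the results was not tested. In RNA from bulk cultures, fewer cells of a type and less RNA per cell cannot be told apart.

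With IL-33, 1770 genes rose (16.4% of those tested) and 2655 fell (24.6%) at an adjusted p under 0.05 by limma. These shares are the background for each group of genes below. Levels are FPKM per library, and differences are those of log2(FPKM + 1), IL-33 minus control, with the standard error (SE). Of the genes that rose, 764 did so by at least 2-fold and 77 by at least 8-fold. Among those that fell, 1022 and 16 passed these sizes, so that the steepest changes were mostly rises. The split between directions depended on scaling: after median-of-ratios rescaling 21.6% rose (2326 genes) and 17.8% fell (1918 genes), and the median difference of all genes went from -0.13 to 0.01. A total of 414 genes passed the filter through the IL-33 libraries alone and 569 through the control libraries alone. The filter set the direction of such genes but not a call. Of the 414, 356 rose, and of the 569, 396 fell. Among the 9798 others, 1414 rose and 2259 fell. Without the IL-33 library 1 or 2, the called genes numbered 2833 or 2722 in place of 4425.

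**Figure D1:**
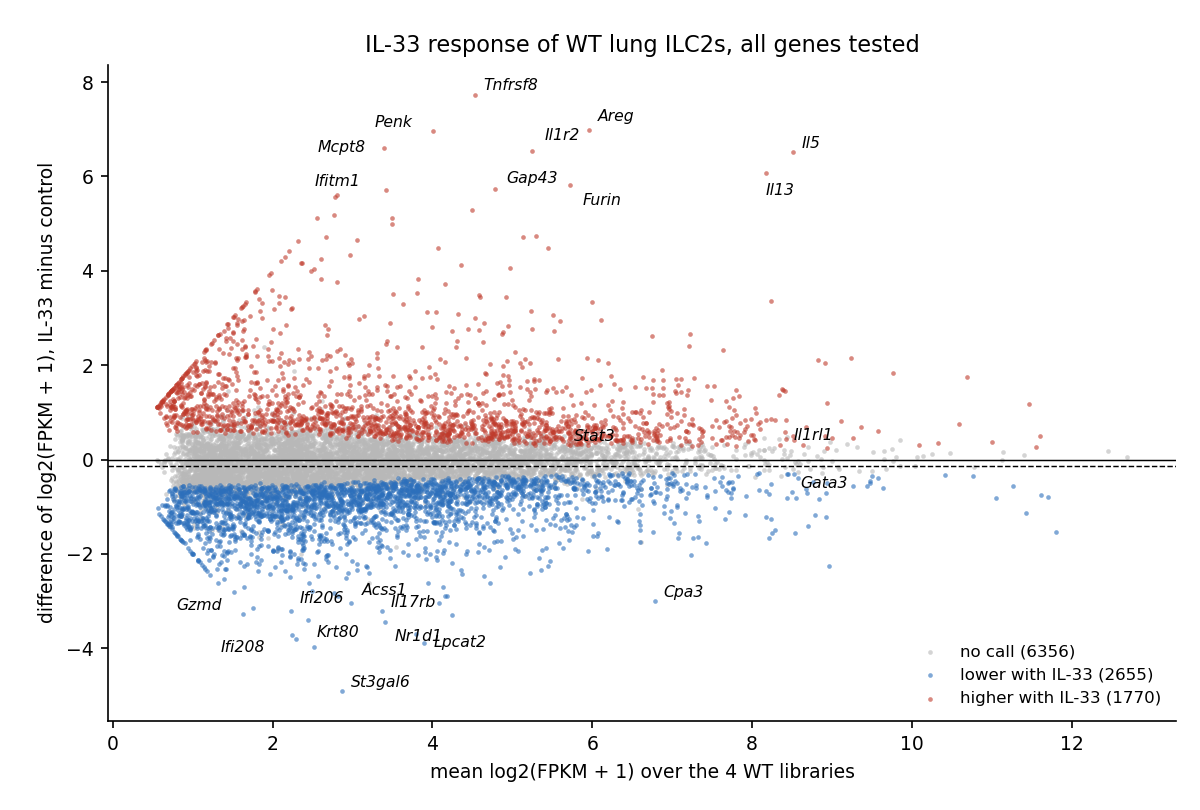
Difference of log2(FPKM + 1) between the IL-33 and control libraries of WT cells (y axis) against the mean log2(FPKM + 1) over the 4 WT libraries (x axis), 1 point per gene, coloured by the limma call. The dashed line is the median of all genes (-0.13), which after median-of-ratios rescaling lies at 0.01; named rises reach 7.73 (Tnfrsf8) and named falls -4.91 (St3gal6).

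Il5, the eosinophil cytokine (GRCm38 chr11:53720794-53725106), measured 38.5 and 36 FPKM in control and 3602 and 3398 with IL-33, a difference of 6.52 ± 0.13, adjusted p = 7.82e-09. Il13, the cytokine of mucus production (chr11:53631324-53634702), rose from 30.6 and 37.9 to 2021 and 2783 FPKM (6.08 ± 0.16, adjusted p = 5.58e-08). Il5 ranked 1562 by mean level in control and 5 with IL-33, just after Eef1a1, B2m, Tmsb4x and Fth1, which serve translation, antigen presentation, the actin skeleton and iron storage in most cells. Il5 and Il13 together made up 1.67% and 1.85% of all FPKM in the IL-33 libraries, against 0.0208% and 0.023% in control. Tmsb4x, an actin-binding peptide, rose from 1802 and 1983 to 4529.7 and 4004 FPKM, and Lgals1, galectin-1, from 884 and 916 to 2967 and 3074 FPKM, and both entered the 10 most abundant genes. Between Il13 and Il5 on chromosome 11 lies Rad50, a DNA repair gene, which was at 39.3 and 40.4 FPKM in control and 44.6 and 40.7 with IL-33 and made no call. Il4, next to Il13, rose from 2.72 and 3.14 to 6.8 and 5.26 FPKM (no call without IL-33 library 1, difference 0.67), and Irf1, an interferon response factor on the other side of Il5, fell from 84.9 and 93.6 to 34.1 and 32.8 FPKM.

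Beside the cytokines, the largest rises were in genes of very different roles. Tnfrsf8, the TNF receptor CD30 (chr4:145267137-145315164), was at 0.241 and 1.04 FPKM in control and 321 and 355 with IL-33 (7.73 ± 0.22, adjusted p = 9.18e-08). Il1r2, a decoy receptor that binds IL-1 without signalling, rose from 2.81 and 3.08 to 359 and 374 FPKM. Furin, a protease that cleaves precursors of secreted proteins such as TGF-beta, rose from 5.83 and 6.24 to 345 and 459 FPKM (5.83 ± 0.16, adjusted p = 7.58e-08). In each of these genes the lower IL-33 library lay far above the higher control library. Areg, amphiregulin (chr5:91139599-91148432), rose from 4.12 and 4.99 to 727 and 680.0 FPKM (6.99 ± 0.31, adjusted p = 9.66e-07). Gap43, a protein of growing nerve endings, rose from 2.7 and 2.9 to 185 and 216 FPKM, and Penk, the precursor of enkephalins, from 0.802 and 0.155 to 175 and 182 FPKM. Ifitm1, a membrane protein known for blocking virus entry, rose from 0.436 and 0.519 to 75.7 and 76.2 FPKM.

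A further set of genes went from near 0 to clear expression. In all 22 genes were under 1 FPKM in both control libraries and at or above 10 in both IL-33 libraries, and the reverse held for 4. Pth, the parathyroid hormone gene, was listed at 0 in both control libraries and was at 46 and 46.7 FPKM with IL-33. The same pattern held for Nts, the precursor of neurotensin, at 34.1 and 32.9 FPKM, and for Mmp10, a matrix metalloprotease, at 22.3 and 25.5. Msc, a transcription factor of the basic helix-loop-helix family, went from 0.328 and 0.149 to 31.5 and 31.6 FPKM, and Ermn, ermin, known from myelin, from 0.459 and 0 to 20.2 and 21.3 FPKM. The log2 difference of such genes depends on the pseudocount (for Nts 5.11 with 1 and 8.39 with 0.1), so their levels are the better guide.

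The deepest fall was that of St3gal6, a sialyltransferase that helps build selectin ligands, from 38.8 and 39.5 to 0.364 and 0.313 FPKM (-4.91 ± 0.21, adjusted p = 7.25e-07). Lpcat2, an acyltransferase of platelet-activating factor synthesis, fell from 55.3 and 56.9 to 2.98 and 2.72 FPKM (-3.89 ± 0.14, adjusted p = 2.13e-07). Nr1d1, the clock repressor REV-ERB alpha, fell from 35.3 and 32.5 to 2.61 and 1.84 FPKM, and Il17rb, the receptor subunit for IL-25, from 27.2 and 33.8 to 2.28 and 2.54 FPKM. The other large falls were those of Krt80, a keratin (from 18.3 and 15.2 to 0.481 and 0.90 FPKM), Acss1, a mitochondrial acetyl-CoA synthetase (from 18.8 and 25 to 1.75 and 1.74 FPKM), Cpa3, a carboxypeptidase of mast cell granules (from 326 and 299 to 34.6 and 41.8 FPKM), Gzmd, Ifi208 and Ifi206. In none of the 10 largest rises and 10 largest falls did the groups overlap, which the rule for choosing them required. St3gal6, Krt80, Gzmd, Ifi208 and Ifi206 passed the filter through the control libraries alone. Mcpt8, Penk and Ifitm1 passed through the IL-33 libraries alone. The direction of these genes was set by the filter, so their p-values are no separate support for it.

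**Figure D2:**
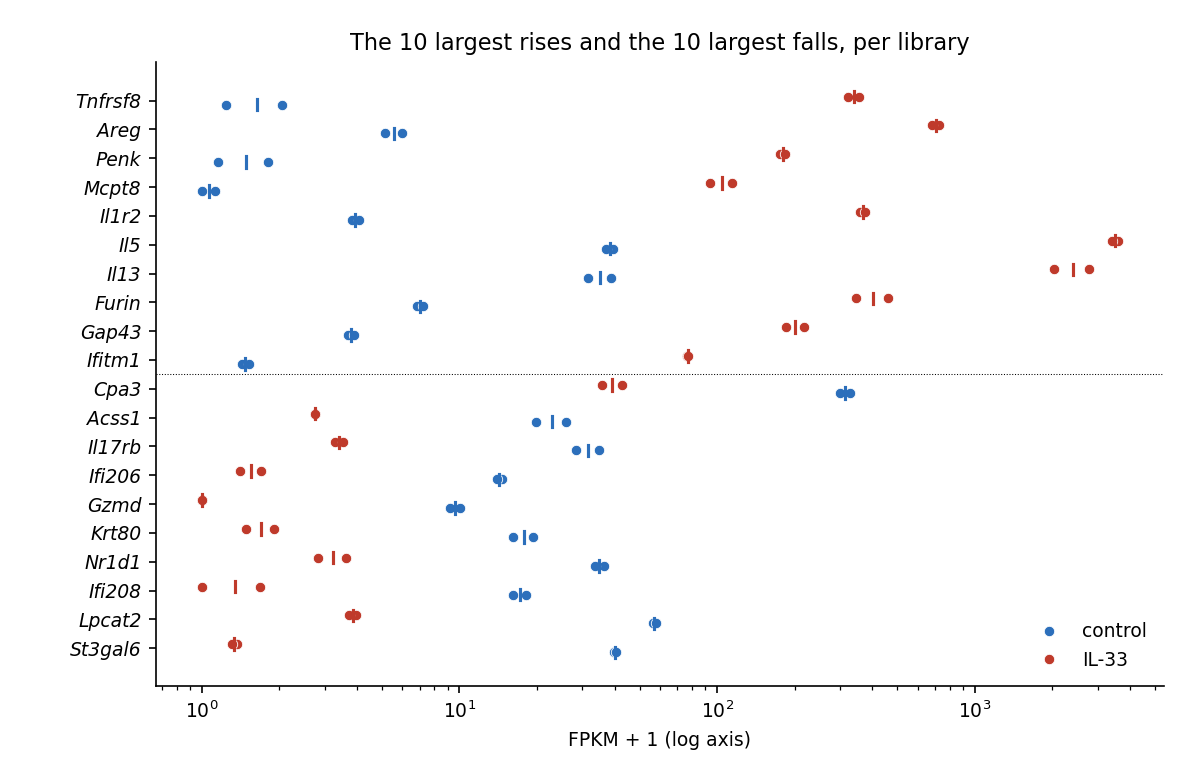
FPKM + 1 on a log axis in each WT library for the 10 largest rises (above the dotted line) and the 10 largest falls; points are libraries (blue control, red IL-33) and vertical bars group means. Replicates lie close together beside the gap between groups, and the lowest levels, at 1 on this axis, are values listed at 0.

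The IL-33 receptor itself was expressed at a high level in both groups. Il1rl1 was at 231 and 424 FPKM in control and 350.1 and 369.5 with IL-33 and made no call (0.20 ± 0.23, adjusted p = 0.513). Its control libraries stood on both sides of the IL-33 libraries, and without control library 1 or 2 the difference was -0.24 or 0.64, the latter with an adjusted p of 0.0112. Of the 14 ILC2 markers, 3 rose and 6 fell, among the falls Il7r, the IL-7 receptor (from 501 and 543 to 180.4 and 173 FPKM), Icos, a co-stimulatory receptor (from 188 and 188 to 102 and 84.8 FPKM), and the transcription factor Rora (from 18.1 and 19.6 to 6.36 and 6.27 FPKM). Gata3, the factor that specifies ILC2s, fell from 464 and 454 to 278 and 292 FPKM. Il1rap, the co-receptor, was under the filter, at 0.64 and 1.05 FPKM in control and 0.54 and 0.454 with IL-33. Downstream of the receptor, 7 of 23 tested signalling genes rose and 8 fell. Those that rose included inhibitors of the pathway: Irak3, a kinase-dead Irak that blocks signalling (from 5.07 and 5.24 to 20.5 and 19.6 FPKM), Zc3h12a, an RNase that destroys cytokine mRNAs (from 1.18 and 1.82 to 13.1 and 19.3 FPKM), and Tnfaip3 (A20, from 6.66 and 7.54 to 16.1 and 14.9 FPKM). Nfkbiz, a nuclear cofactor of NF-kB, rose from 7.23 and 8.21 to 29.7 and 29.5 FPKM, and Map3k8, a kinase upstream of ERK, from 19.8 and 21.5 to 68.7 and 66.5 FPKM. Those that fell included upstream kinases and their partners, such as Irak2 (from 39.9 and 39 to 21.2 and 26.1 FPKM) and Tab2 (from 12.3 and 12 to 4.99 and 3.57 FPKM). The falls numbered 5 after rescaling and 5, 5, 5 and 4 without control library 1, control library 2, IL-33 library 1 and IL-33 library 2.

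Ligands and receptors of the TNF family, which carry survival and co-stimulatory signals between immune cells, moved in both directions. Of 26 tested, 14 rose and 7 fell, with a median difference of 0.49 against -0.13 over all genes. Among the 23 that passed the filter in both groups, 13 rose and 6 fell. Tnfrsf9, the co-stimulatory receptor 4-1BB, rose from 2.76 and 2.46 to 144 and 137 FPKM (5.30 ± 0.13, adjusted p = 3.09e-08), and its ligand Tnfsf9 from 15.3 and 12.4 to 57.3 and 58.5 FPKM. Tnf rose from 34.3 and 30.1 to 87.3 and 82.7 FPKM, and Tnfrsf1b, the second TNF receptor, from 39.6 and 42.6 to 85 and 83.3 FPKM. Cd70 rose from 0.142 and 0.15 to 6.5 and 10.7 FPKM while its receptor Cd27 fell from 5.09 and 3.61 to 0.432 and 0.29 FPKM. Tnfsf14 (LIGHT), a ligand that shapes lymphoid tissue, fell from 88.4 and 85.8 to 30.8 and 28.5 FPKM. Tnfrsf25, the receptor of the ILC2 activator TL1A, was at 108 and 99.9 FPKM in control and 80.5 and 97.4 with IL-33 with no call.

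Among transcription factors of the immediate-early kind, rises outnumbered falls. Of 19 tested EGR, NR4A, AP-1 and BATF genes, 9 rose and 2 fell (1 without control library 1 or IL-33 library 1), and 4 of them passed the filter through the IL-33 libraries alone. Junb, an AP-1 subunit, rose from 85.5 and 90.1 to 403 and 492 FPKM (2.33 ± 0.11, adjusted p = 1.31e-06), Fosl1, its partner, from 0.244 and 0 to 5.03 and 7.56 FPKM, and Batf, an AP-1 factor of lymphocytes, from 22 and 22.5 to 66.5 and 62.2 FPKM. Irf4, which binds DNA together with Batf, rose from 6.33 and 7.72 to 27.6 and 23.5 FPKM, and Crem, a cAMP-responsive factor, from 9.62 and 9.31 to 59.5 and 57 FPKM. Nr4a1, an orphan nuclear receptor induced by receptor signals, rose from 0.0482 and 0.179 to 8.31 and 7.13 FPKM. Bach1, a repressor that competes at AP-1-like sites, fell from 3.18 and 4.05 to 0.943 and 1.3 FPKM. Feedback phosphatases of MAP kinases gave 3 rises and 1 fall among 9, and 2 rises without IL-33 library 2 and 0 falls without IL-33 library 1 or 2. Dusp14 rose from 1.1 and 1.33 to 9.61 and 10.7 FPKM and Dusp16 from 0.0459 and 0.202 to 2.44 and 3.24 FPKM.

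The 250 bases before the RefSeq start of each gene (build GRCm38.p6) were searched for short motifs on both strands, for the 7665 tested genes that matched a RefSeq symbol. The AP-1 motif TGANTCA was present for 10.5% of 532 genes that rose by at least 2-fold, for 5.47% of 603 that fell by at least 2-fold and for 5.01% of all tested genes. For NF-kB, genes with GGGNNTTCC on either strand were counted together with those that hold a second form of this binding site, which overlaps the first in part and reads GGNNTTTCC. Their shares were 10.9%, 9.29% and 11.6% in the same order. For GATA factors, the motif was AGATAA in its most frequent form, and windows that hold the alternative form TGATAA were counted as well. These shares were 10.2%, 14.6% and 11%. The cAMP response motif TGACGTCA gave 2.07%, 2.82% and 3.25% in the same order. Over all 32851 RefSeq windows the shares were 6.75% for AP-1, 8.36% for NF-kB, 16.6% for GATA and 1.55% for the cAMP motif. These shares are descriptions without a test, and a match is not a site of binding. Genes on 1 chromosome were left out when stretches were chosen. The stretches below read 5′ to 3′ on the strand of the gene, with the AP-1 match in capitals. They are those of the 4 steepest remaining rises that have a match outside annotated exons.
Tnfrsf8: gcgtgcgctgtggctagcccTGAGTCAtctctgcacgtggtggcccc
Nts: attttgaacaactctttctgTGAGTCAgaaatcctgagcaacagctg
Mmp10: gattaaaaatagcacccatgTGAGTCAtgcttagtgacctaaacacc
Ifitm3: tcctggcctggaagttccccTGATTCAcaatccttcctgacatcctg
They lie at chr4:145315270-145315316, minus strand (Tnfrsf8), chr10:102490599-102490645, minus strand (Nts), chr9:7502259-7502305, plus strand (Mmp10) and chr7:141010823-141010869, minus strand (Ifitm3), and the matches start 132, 207, 63 and 105 bases before the gene start. The NF-kB matches of the 4 steepest rises chosen in the same way are shown next, since NF-kB is the classical end of IL-33 signalling.
Il13: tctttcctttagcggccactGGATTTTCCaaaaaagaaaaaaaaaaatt
Cxcl3: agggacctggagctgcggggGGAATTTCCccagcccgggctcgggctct
Tinagl1: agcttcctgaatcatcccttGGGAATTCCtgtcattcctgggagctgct
Il2ra: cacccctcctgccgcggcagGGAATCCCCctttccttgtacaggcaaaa
These lie at chr11:53634809-53634857, minus strand (Il13), chr5:90786009-90786057, plus strand (Cxcl3), chr4:130175255-130175303, minus strand (Tinagl1) and chr2:11642572-11642620, plus strand (Il2ra, match on the opposite strand). Cxcl3, a neutrophil chemokine, was at 1.21 and 0.812 FPKM in control and 69.3 and 56 with IL-33, and Il2ra, the alpha chain of the IL-2 receptor, at 79.1 and 109 FPKM in control and 889.8 and 1049 with IL-33.

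Transcription factors that direct lymphoid lineages fell more often than they rose. Of 32 tested, 7 rose and 16 fell (5 and 14 among the 28 that passed in both groups), with a median difference of -0.48 (-0.33 after rescaling). Tcf7, an early factor of innate lymphoid cells, fell from 10.5 and 14 to 1.51 and 2.71 FPKM, Bcl11b, which maintains ILC2 identity, from 35.5 and 28.1 to 6.7 and 8.33 FPKM (-1.94 ± 0.18, adjusted p = 5.51e-05), and Tox from 24.9 and 21.3 to 5.67 and 6.27 FPKM. Tbx21, the ILC1 factor, was low in control and fell from 4.12 and 3.04 to 0 and 0.444 FPKM. Pparg, a lipid-sensing nuclear receptor, rose from 132 and 131 to 335 and 293 FPKM (1.25 ± 0.11, adjusted p = 4.72e-05), and Prdm1, Blimp-1, from 1.68 and 4.67 to 16.4 and 14.1 FPKM. Without IL-33 library 1 the rises numbered 4.

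Genes of cytotoxic granules did not move as a block, although they lie side by side. Of 13 tested granzyme and effector genes, 2 rose and 7 fell (4 falls without IL-33 library 2). Of these, 4 passed the filter through the control libraries alone, and among the 9 others 4 fell. In a stretch of chromosome 14 (56082166 to 56262260), Mcpt8, a protease of basophil granules, was at 0 and 0.126 FPKM in control and 92.8 and 114 with IL-33 (6.61 ± 0.21, adjusted p = 1.36e-07). Gzmb, granzyme B, at the other end, rose from 11.8 and 9.27 to 78.6 and 83.9 FPKM (2.84 ± 0.17, adjusted p = 4.95e-06). Between them Gzmd fell from 8.22 and 9.04 to 0 and 0 FPKM, Gzmg from 3.74 and 3.33 to 0 and 0 FPKM and Gzmc from 1.87 and 2.97 to 0.506 and 0.0687 FPKM, and Gzme was at 5.46 and 5.86 FPKM in control and 6.31 and 7.04 with IL-33 with no call. Reads of these related genes may be shared, which leaves the low values uncertain. Prf1, perforin, fell from 5.97 and 5.74 to 2.61 and 2.07 FPKM (no call without IL-33 library 2, nor for Gzmc, with differences of -0.93 and -1.16), and Srgn, serglycin, the proteoglycan that packs such granules, rose from 219 and 214 to 966 and 918 FPKM. Of the 5 mast cell and basophil markers in the table, Mcpt8 rose, Cpa3 fell, and Hdc, Cd200r3 and Cma1 were at or under 0.831 FPKM in each WT library. Their sum was 299 to 327 FPKM in control and 128 to 156 with IL-33.

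Neighbouring receptors for chemokines also parted. Of 20 tested chemokine receptor and tissue egress genes, 9 rose and 8 fell (7 and 6 among the 16 that passed in both groups). Ccr1 rose from 16.9 and 16.2 to 146 and 122 FPKM (2.94 ± 0.12, adjusted p = 5.12e-07), while Ccr2, near it on chromosome 9, fell from 503 and 551 to 344 and 299.7 FPKM and Cxcr6, a receptor of tissue-resident cells, from 830.0 and 836 to 632 and 589 FPKM, a fall that made no call after rescaling. Ccr7, which guides cells to lymph nodes, rose from 16.2 and 17.5 to 109 and 127 FPKM (2.73 ± 0.11, adjusted p = 6.36e-07), and Gpr183, a receptor for oxysterols, from 17.6 and 15.6 to 45.9 and 42.2 FPKM. Both sides of the balance of tissue exit rose: S1pr1, the exit receptor, from 4.93 and 7.79 to 23.1 and 22.8 FPKM, and Cd69, which removes it from the surface, from 16.4 and 14.1 to 34.3 and 38.5 FPKM. Ccr7 also belongs to the 10 dendritic cell markers, whose sum was 147 to 154 FPKM in control and 277 to 319 with IL-33. Of 5 tested, 4 rose (Ccr7, Batf3, H2-Aa and Xcr1, the last not called without control library 2 or IL-33 library 1) and 0 fell, while Flt3, Itgax and Zbtb46 were at or under 0.254 FPKM in each WT library. Itgb7, the beta 7 integrin of mucosal homing, fell from 1225 and 971 to 211 and 244 FPKM (-2.26 ± 0.15, adjusted p = 8.53e-06).

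In 4 other families, called changes in 1 direction outnumbered those in the other. All 4 were chosen with earlier results of these data known, the last 2 after their values were seen. Of 13 Ly6 and related surface genes, 8 rose and 3 fell (6 and 3 among the 11 that passed in both groups). Ly6a (Sca-1) rose from 235 and 236 to 1089 and 878 FPKM and Ly6c1 from 0.462 and 0.866 to 38.5 and 43.2 FPKM. Ly6e fell from 750.4 and 733 to 512 and 500.2 FPKM. Among 8 GIMAP genes, a GTPase family of lymphocytes, 3 rose, 1 fell and 4 made no call, and after rescaling 6 rose and 0 fell. The fall was also lost without control library 1 or IL-33 library 1. Gimap4 rose from 104 and 96.6 to 303 and 289.6 FPKM. All 4 tested genes of the IFITM family rose, Ifitm2 from 3.46 and 4.43 to 82.7 and 86.9 FPKM and Ifitm3 from 8.26 and 5.31 to 132 and 122 FPKM beside Ifitm1. In the cluster of interferon-inducible Ifi200 (PYHIN) genes on chromosome 1, which encode DNA sensors, 6 of 7 tested genes fell, such as Ifi208 from 15.2 and 17.1 to 0.688 and 0 FPKM and Ifi203 from 15.3 and 16.4 to 3.52 and 2.18 FPKM, whereas Aim2, the inflammasome sensor, rose from 6.66 and 8.98 to 13 and 10.9 FPKM. The call for Aim2 was lost without control library 1 (difference 0.37), IL-33 library 1 (0.44) or IL-33 library 2 (0.68). Both families are known as interferon-induced, and they moved in opposite directions here.

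**Figure D3:**
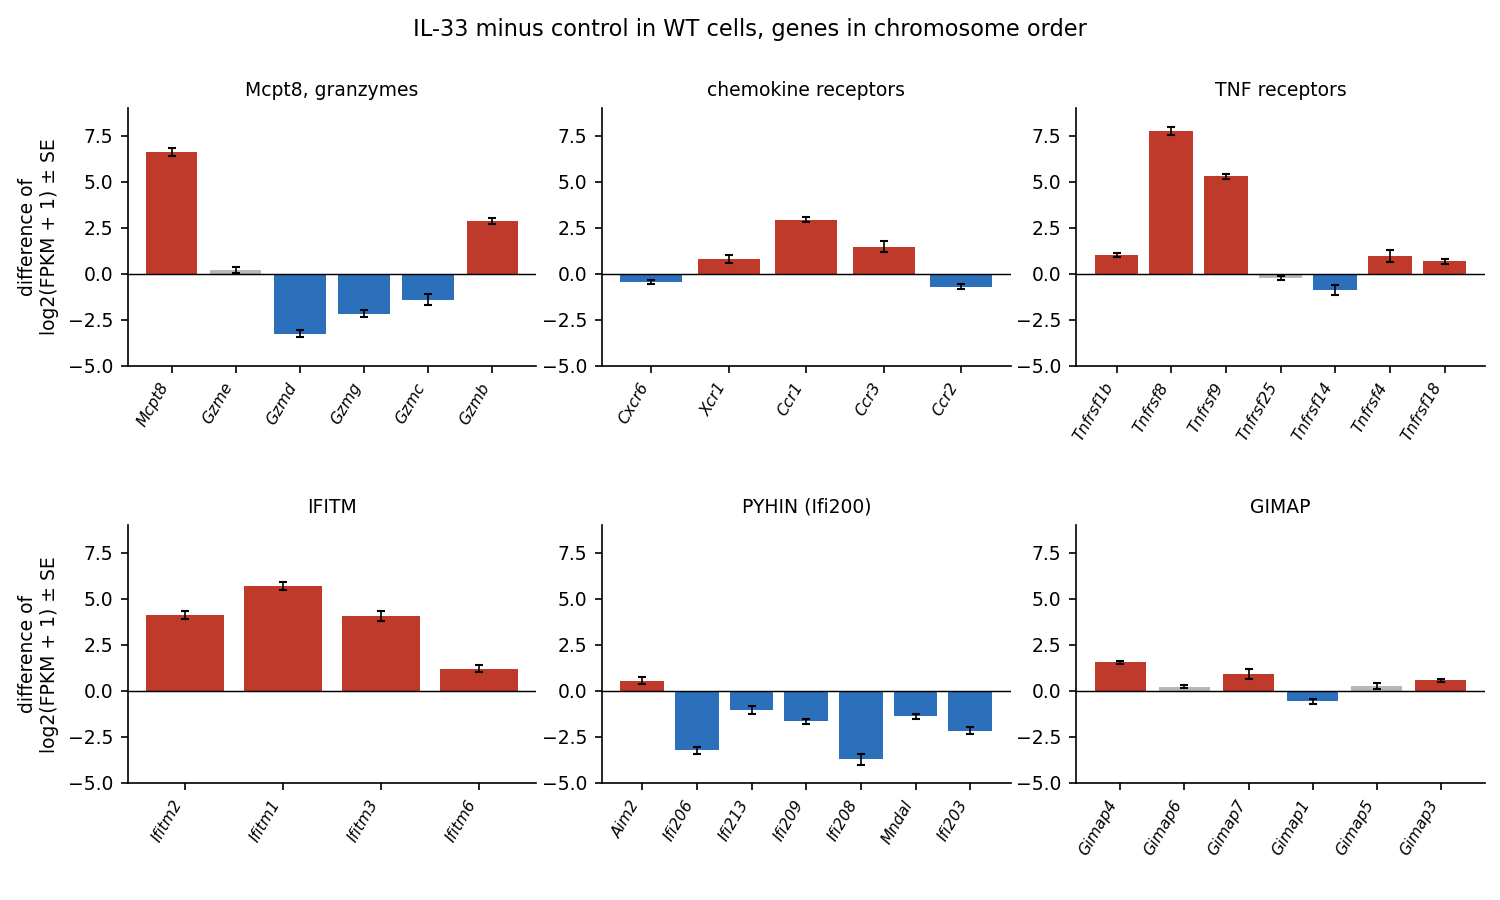
Difference of log2(FPKM + 1), IL-33 minus control, with its SE in WT cells for genes of 6 families in chromosome order (red higher, blue lower, grey no call). Gains and falls both occur among granzymes and chemokine receptors, all 4 IFITM genes are higher and 6 of 7 Ifi200 genes are lower; Gimap1, Cxcr6 and Tnfrsf14, lower here, made no call after median-of-ratios rescaling, and Gimap5 and Gimap6 were then higher.

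Genes that link immune cells with nerves and lipids included several of the steepest changes. Of 16 tested neuropeptide and neural receptor genes, 8 rose and 5 fell, and 5 passed the filter through the IL-33 libraries alone. Among the 11 others, 3 rose and 5 fell. Calca, the calcitonin gene-related peptide precursor, rose from 0.142 and 0.0375 to 9.81 and 11.4 FPKM beside Penk and Nts. Calca, Penk and Nts are among the 5 that passed through the IL-33 libraries alone, so the filter set their direction. Tph1, the first enzyme of serotonin synthesis, rose from 0.763 and 1.09 to 67.8 and 63.5 FPKM (5.11 ± 0.17, adjusted p = 1.77e-07). Receptors through which nerves act on ILC2s were lower: Nmur1, the neuromedin U receptor, went from 257 and 237 to 164 and 186 FPKM, a fall that made no call after rescaling, and Vipr2, a receptor for vasoactive intestinal peptide, fell from 3.18 and 4.33 to 1.6 and 1.58 FPKM. The rises numbered 5 without control library 1 or IL-33 library 2, and the falls 3 without control library 1, IL-33 library 1 or IL-33 library 2. Among 14 lipid mediator genes, 4 rose and 6 fell. Ptger4, a prostaglandin E2 receptor, fell from 65.3 and 64.8 to 16.8 and 15.7 FPKM (-1.94 ± 0.11, adjusted p = 4.53e-06), and Hpgds, the prostaglandin D2 synthase of blood cells, from 8.27 and 7.69 to 2.15 and 1.88 FPKM. Ptges, a prostaglandin E2 synthase, rose from 0.955 and 1.06 to 7.37 and 8.5 FPKM and Cysltr2, a receptor for cysteinyl leukotrienes, from 29.9 and 42.9 to 91.8 and 105 FPKM. Of 13 purinergic genes, 6 rose and 1 fell (4 and 1 among the 11 that passed in both groups). Adora2b, an adenosine receptor, went from 30.3 and 27.8 to 79.9 and 92.8 FPKM. P2rx1, an ATP-gated channel, went from 0 in both control libraries to 5.01 and 5.48 FPKM.

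Genes of antigen presentation moved in both directions. Of 27 tested, 8 rose and 11 fell, and 8 and 8 after rescaling, which turned the sign of the median (-0.12 to 0.05). The class II genes H2-Ab1, H2-Aa and H2-Eb1 rose from 15.2 and 13.5 to 37.4 and 45.4 FPKM, from 10.3 and 11.6 to 25.7 and 27 FPKM and from 12.5 and 16.3 to 39 and 40.1 FPKM. Cd74, the invariant chain that escorts class II, rose from 7.82 and 8.64 to 52.9 and 70.5 FPKM (2.75 ± 0.16, adjusted p = 4.30e-06). Ciita, the master regulator of class II, was at 0.851 and 0.793 FPKM in control and 1.07 and 1.11 with IL-33 with no call. Among class I genes, H2-K1 fell from 2975 and 2676 to 1594 and 1614 FPKM (-0.81 ± 0.09, adjusted p = 0.000178), H2-Q6 from 700.0 and 659 to 254 and 254 FPKM, and Tapbpl, a peptide editor of class I, from 40.4 and 38.2 to 9.23 and 6.66 FPKM. Calr and Canx, chaperones that also serve class I assembly, rose (differences 1.09 and 1.11). B2m, the light chain of class I, was at 5163 and 5298 FPKM in control and 6056 and 5894 with IL-33 with no call. The H2-Q genes are near-identical copies, whose reads may be shared.

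Among genes that build and process secreted proteins, rises outnumbered falls. Of 64 tested genes of the secretory pathway, 25 rose and 4 fell, with a median difference of 0.34, and 38 rose after rescaling. Kdelr3, a receptor that returns proteins to the endoplasmic reticulum (ER), rose from 0.0843 and 0.536 to 9.2 and 9.3 FPKM, Sec61g, part of the channel into the ER, from 4.45 and 5.99 to 18.7 and 16 FPKM, and Lman1, a cargo receptor, from 14.1 and 15.2 to 34.6 and 35.2 FPKM (1.20 ± 0.12, adjusted p = 9.22e-05). The chaperones Calr and Canx, counted with antigen presentation, rose from 173 and 187 to 402 and 368 FPKM and from 129 and 154 to 309 and 303 FPKM. The falls numbered 2 without IL-33 library 1 or 2. The ER stress response element (CCAAT, 9 further bases and CCACG) was present before the start of 5 of the 532 genes that rose by at least 2-fold (0.94%), of 0 of the 603 that fell and of 13 of all tested (0.17%; 0.113% of all windows). Stretches outside annotated exons were chosen as for AP-1, and those of the 4 steepest rises are shown. The element is in capitals, 5′ to 3′ on the strand of the gene.
Pdia6: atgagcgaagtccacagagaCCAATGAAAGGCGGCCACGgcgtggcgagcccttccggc
Canx: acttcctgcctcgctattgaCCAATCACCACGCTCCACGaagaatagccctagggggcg
Calr: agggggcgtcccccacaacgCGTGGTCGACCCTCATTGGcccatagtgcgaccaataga
Creld2: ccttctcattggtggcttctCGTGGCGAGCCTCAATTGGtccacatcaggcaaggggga
They lie at chr12:17266471-17266529, plus strand (Pdia6), chr11:50325780-50325838, minus strand (Canx), chr8:84847055-84847113, minus strand (Calr) and chr15:88819500-88819558, plus strand (Creld2), and those of Calr and Creld2 read on the opposite strand. Pdia6, a disulfide isomerase of the ER, was at 84.2 and 83.2 FPKM in control and 180.2 and 187 with IL-33, and Creld2, an ER stress protein, at 23.9 and 23.7 FPKM in control and 49.2 and 51.7 with IL-33. The motif TGATGNAA of amino acid stress response factors was found for 4.7% of the rises, 1.82% of the falls and 2.39% of tested genes (3.45% of windows), and the sterol motif TCACNCCAC for 2.07%, 0.332% and 1.25% (1.05% of windows).

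Lists of protein synthesis and turnover genes differed in how often their members rose. Of 24 cytosolic tRNA synthetase genes, 9 rose and 2 fell, and 17 and 1 after rescaling. Gars, which charges glycine, rose from 51.6 and 50.1 to 81.5 and 81.2 FPKM, and Vars, which charges valine, fell from 78 and 86.4 to 44.6 and 48.5 FPKM (-0.81 ± 0.11, adjusted p = 0.000434). Of 47 ribosome biogenesis genes, 19 rose and 3 fell, such as Nop16 (from 15.3 and 14.2 to 34.7 and 35.2 FPKM) and Nop2 (from 52.6 and 55.9 to 82.4 and 95.1 FPKM), both needed for the large subunit. Cytosolic ribosomal proteins rose at the background rate, 13 of 79, and 4 fell. Mitochondrial ribosomal proteins gave 7 rises and 4 falls among 76, both shares below the background. Of 41 proteasome genes, 17 rose and 3 fell: Psmc6, an ATPase of the cap, rose from 58.4 and 67.1 to 205 and 161 FPKM, Psmd8 from 151 and 156 to 273 and 267 FPKM, and Psmb10, a catalytic subunit of the immunoproteasome, fell from 83.1 and 84.9 to 33.8 and 37.9 FPKM (-1.21 ± 0.17, adjusted p = 0.000588). These counts were sensitive to single libraries. Without IL-33 library 1 the rises numbered 9 for ribosome biogenesis, 5 for cytosolic and 2 for mitochondrial ribosomal proteins and 10 for the proteasome. Without IL-33 library 2 they numbered 9, 8, 3 and 10. The tRNA synthetase rises numbered 5 without control library 2, and the cytosolic ribosomal rises 5 and 8 without control library 1 and 2. Rises no longer outnumbered falls for cytosolic ribosomal proteins without control library 1 (5 and 6), nor for mitochondrial ones without IL-33 library 1 (2 and 2) or 2 (3 and 3). The falls of these 5 lists ranged from 0 to 6 when 1 library was left out.

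**Figure D4:**
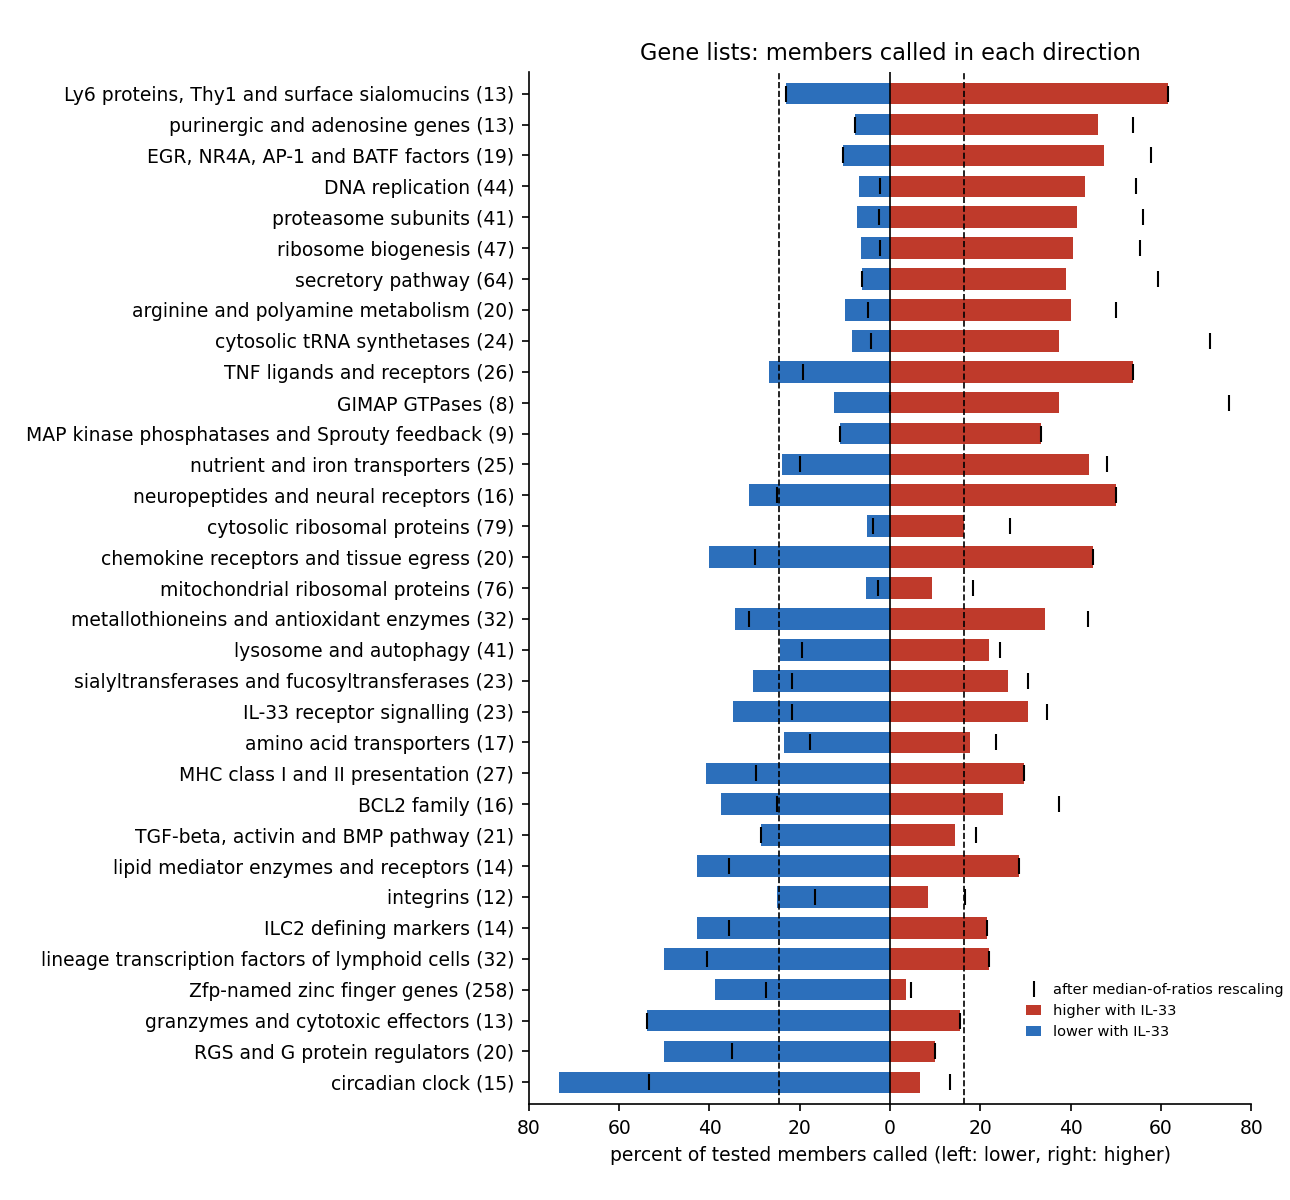
Percent of the tested members of each gene list (number in brackets, lists with at least 8 tested) that rose (right) or fell (left) with IL-33 in WT cells; ticks give the same after median-of-ratios rescaling and dashed lines the share over all genes (16.4% and 24.6%). Most growth and secretion lists lie to the right and clock, RGS and Zfp-named genes to the left; with rescaling the larger side turns for the BCL2 family, sialyltransferases, lysosome, amino acid transporter and IL-33 signalling lists, antigen presentation and integrins even out, and antioxidant genes, even before, lean to the right.

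Metabolic supply genes changed one by one. Of 20 arginine and polyamine genes, 8 rose and 2 fell (1 without any 1 of the 4 WT libraries). Smox, spermine oxidase, rose from 3.03 and 2.9 to 36.1 and 39.9 FPKM (3.30 ± 0.16, adjusted p = 1.56e-06), and Odc1, the first enzyme of polyamine synthesis, from 5.11 and 4.95 to 13.5 and 9.42 FPKM, whereas Arg1 did not make a call. Among 25 nutrient and iron transporters, 11 rose and 6 fell, the rises led by Tfrc, the transferrin receptor (from 1.28 and 5.19 to 56.6 and 47.8 FPKM), and Fabp5, a fatty acid carrier (from 14.4 and 13.4 to 72.9 and 69.7 FPKM). Slc2a1, the main glucose transporter of lymphocytes, was at 81.6 and 69.9 FPKM in control and 92.6 and 90.5 with IL-33 with no call. Without IL-33 library 1 the rises and falls in this list numbered 7 and 3, and the rises 7 without IL-33 library 2. Antioxidant genes gave 11 rises and 11 falls among 32, and again divided. Nfe2l2 (NRF2), the factor that drives glutathione synthesis, fell from 65.4 and 66.2 to 25.7 and 27.4 FPKM and its target Gclc from 4.86 and 5.56 to 0.587 and 0.979 FPKM, while Hmox1, heme oxygenase 1, rose from 10.8 and 10.3 to 31.2 and 28.6 FPKM and Mt1, a metallothionein, from 2.73 and 2.84 to 16.4 and 14.7 FPKM. The antioxidant rises numbered 7, 6 and 7 without control library 1, IL-33 library 1 and IL-33 library 2. Sialyltransferase and fucosyltransferase genes, St3gal6 included, moved both ways, with 6 rises and 7 falls among 23 (4 falls without IL-33 library 1). St6gal1 fell from 30.8 and 29.9 to 11 and 12.5 FPKM and St3gal4 rose from 9.48 and 12.1 to 19.6 and 22.2 FPKM.

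Genes of DNA replication rose more often than they fell, 19 of 44 against 3 that fell, with a median difference of 0.33. Cdc6, which loads the replicative helicase, rose from 11.5 and 13.4 to 24.5 and 26.3 FPKM (0.98 ± 0.14, adjusted p = 0.000775), and Uhrf1, which copies DNA methylation, from 18 and 18.6 to 29.2 and 34 FPKM. The rises numbered 12, 7 and 11 without control library 2, IL-33 library 1 and IL-33 library 2, and the falls 1 without the last. Members of the BCL2 family, which set the threshold for cell death, went both ways: 4 rose and 6 fell among 16, and 6 and 4 after rescaling. Bcl2, which protects cells, fell from 37.2 and 36.2 to 12.9 and 13.9 FPKM (-1.39 ± 0.11, adjusted p = 2.70e-05), whereas Bcl2a1d, a protective relative, rose from 7.73 and 10.8 to 43.5 and 44.4 FPKM. Pmaip1 (NOXA), which promotes death, rose from 29.8 and 32.8 to 139.9 and 138 FPKM. The falls numbered 3 without control library 1 or IL-33 library 2. Bcl2a1d has near-identical copies, whose reads may be shared.

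Clock genes and regulators of G protein signalling fell more often than they rose. Of 15 clock genes, 11 fell and 1 rose, and 8 and 2 after rescaling. Of the 15, 4 passed the filter through the control libraries alone, and among the 11 others 7 fell and 1 rose. Beside Nr1d1, Dbp, a clock output factor, fell from 11 and 3.48 to 0.722 and 0.554 FPKM, and Arntl (BMAL1), the activator of the loop, from 9.49 and 12.6 to 4.95 and 5.07 FPKM. The labels do not give the time of day of harvest, and its part in these values was not tested. The falls numbered 6 without IL-33 library 1, and the single rise (Nfil3) was lost without control library 2, IL-33 library 1 or IL-33 library 2. Of 20 RGS and G protein genes, 10 fell and 2 rose (6 falls without IL-33 library 1). Rgs2 fell from 17.9 and 17.8 to 4.86 and 3.64 FPKM and Rgs18 from 89.8 and 80.1 to 30.5 and 33.3 FPKM, while Rgs1, which limits chemokine signals, rose from 68.9 and 69.4 to 211 and 187 FPKM (1.51 ± 0.10, adjusted p = 7.74e-06) and Rgs16 from 0.0764 and 0 to 5.8 and 6.49 FPKM. In the TGF-beta family, 3 rose and 6 fell among 21 (5 rises without control library 2 and 2 falls without IL-33 library 1). Among the 18 of these that passed the filter in both groups, 1 rose and 6 fell. Tgfb3 rose from 0.141 and 0.0187 to 1.93 and 2.32 FPKM beside Furin, and Tgfbr2, a TGF-beta receptor, fell from 84.3 and 112 to 55.8 and 51.1 FPKM.

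Zinc finger genes and several noncoding classes fell more often than they rose. Of 258 tested genes with a Zfp name, 100 fell and 9 rose (median -0.50), and 71 and 12 after rescaling. Among the 223 that passed the filter in both groups, 85 fell and 5 rose. Zfp36l2, an RNA-binding protein that shortens mRNA lifetimes, fell from 58.4 and 66.2 to 15.8 and 16 FPKM, and Zfp652, a repressor, from 9.35 and 9.41 to 1.55 and 1.21 FPKM. Without control library 1 the rises numbered 4, without IL-33 library 1 the falls and rises numbered 56 and 3, and without IL-33 library 2 49 and 3. By annotation class, 82 of 133 genes annotated as to be experimentally tested (TEC, mostly unspliced) fell and 4 rose, with a median difference of -0.96. Antisense RNAs fell in 56 and rose in 22 of 145 cases (median -0.55) and long intergenic RNAs in 63 and 27 of 170 (median -0.41). After rescaling the falls and rises were 72 and 4 for TEC genes, 51 and 23 for antisense RNAs and 49 and 31 for long intergenic RNAs. Processed pseudogenes went the other way, with 76 rises and 61 falls among 486 (median 0.07), and 97 and 48 after rescaling. Protein-coding genes fell in 2255 and rose in 1603 of 9420 cases (median -0.12), and in 1589 and 2125 after rescaling. TEC genes held 0.19% and 0.203% of all FPKM in control and 0.0829% and 0.076% with IL-33. Genes with a mitochondrial symbol held 6.18% and 5.55% in control and 3.33% and 2.31% with IL-33. The part of unspliced RNA or DNA in these shares was not tested. Without strand information in the table, antisense reads cannot be told apart from those of their partners.

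To show which of these changes differed from those of STAT3-KO cells, the difference between both responses was examined for 23 genes. They were Il5, Il13, Il1rl1, Gata3, Stat3 and the 10 largest rises and falls. The largest changes were chosen by WT values that also enter this test. The share of the 23 genes that passed therefore cannot be set against that of all genes. Over all genes tested 17.2% passed this test (1856 genes). Without WT control library 1, WT IL-33 library 1, WT IL-33 library 2, STAT3-KO control library 1 or STAT3-KO control library 2 this count was 1100, 859, 837, 997 or 935. Among the 23 genes, 15 passed, of which Stat3, Krt80, Il17rb and Cpa3 lost the call when 1 library was left out (adjusted p of up to 0.0793, 0.107, 0.062 and 0.0798). Stat3 itself, which checks the genotype, was at 41.7 and 50.7 FPKM in control and 49 and 55.3 with IL-33 in WT cells, and at 15.3 and 16 in control and 8.03 and 9.69 FPKM with IL-33 in STAT3-KO cells; the table counts whole genes, so RNA without the deleted exons is included. Among the 23 genes the widest gap was that of Mcpt8, with a difference of 6.61 in WT and 0.16 in STAT3-KO cells (responses apart by -6.45 ± 0.30, adjusted p = 1.72e-05). Gzmb, which is not among them, had a wider gap. It rose by 2.84 in WT and fell in STAT3-KO cells (-4.05), with responses apart by -6.89 ± 0.24 (adjusted p = 3.13e-06, same limma test). Furin and Ifitm1 rose less in STAT3-KO cells (5.83 in WT and 2.14 in STAT3-KO cells; 5.70 in WT and 2.39 in STAT3-KO cells). Gap43 rose more there (5.72 in WT and 6.72 in STAT3-KO cells), and Il1rl1, without a call in WT cells, differed by -2.12 in STAT3-KO cells (responses apart by -2.32 ± 0.33, adjusted p = 0.00259). For Areg, Penk, St3gal6, Lpcat2, Nr1d1, Ifi208, Ifi206 and Acss1 the responses made no call of a difference, which does not show that they were equal. Areg differed by 6.99 in WT and 7.15 in STAT3-KO cells, and the difference between these had an SE of 0.44. Every STAT3-KO library carries Vavicre and no WT library does, so their effects cannot be told apart.

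**Figure D5:**
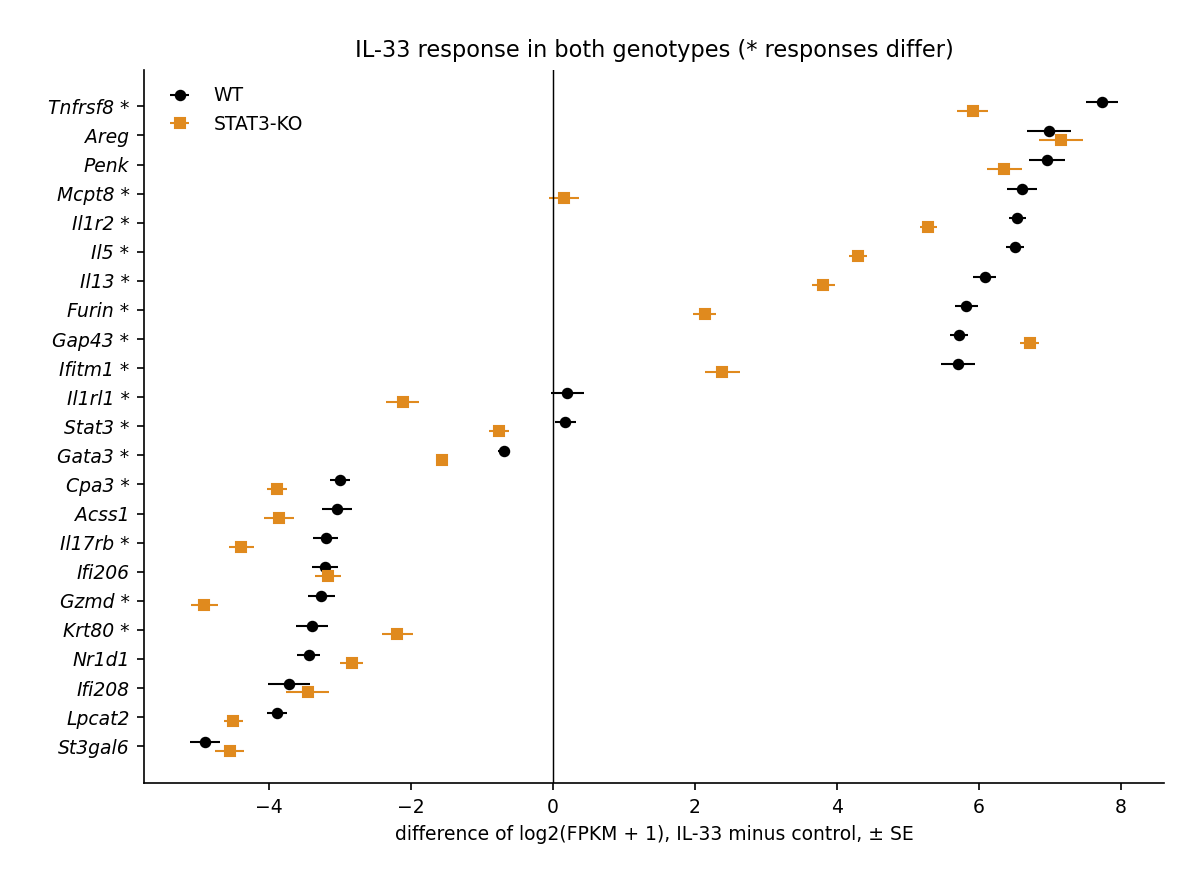
Difference of log2(FPKM + 1), IL-33 minus control, with its SE for 23 genes in WT (black circles) and STAT3-KO cells (orange squares); an asterisk marks genes whose responses differed (adjusted p under 0.05, limma). Mcpt8, Furin and Ifitm1 lie furthest apart, and 8 genes carry no asterisk.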

How the data were processed

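RNA from cultured lung ILC2s was sequenced in 8 libraries, 2 per group. The authors deposited 1 table of FPKM per gene, made with Bowtie2 and RSEM on GRCm38 per the submitters' processing notes. Versions, annotation release and strand use are not given in the sources used here. The low FPKM values are whole multiples of 1 read (93.5% to 94.6% within 0.02 for genes of up to 100 reads, with GENCODE M21 lengths), which gave the relative depth. Because FPKM are not counts, tests ran on log2(FPKM + 1).

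Genes with at least 1 FPKM in at least 2 of the 4 WT libraries were fitted with limma 3.58.1 in R 4.3.3, with 1 mean for each of the 4 groups, a variance trend, two-sided tests and Benjamini-Hochberg adjustment over all 10781 genes at 0.05. Alternatives were another pseudocount, other filters, median-of-ratios rescaling, the WT libraries alone, a replicate block, no trend, a length trend, and each library left out. The fit was also run on simulated reads that were given the same spread in every gene and library. The control libraries stood further apart than the others here, so that run is no support for the calls. Named genes were 292 chosen by rule: 5 fixed genes, the 10 largest changes each way, up to 6 (and 3 against the majority) of smallest p per list, the 10 most abundant, and up to 12 switched on or off. A further 28 were chosen after their values were seen (Aim2, Arg1, Ccr2, Ciita, Creld2, Cxcl3, Cxcr6, Gzmc, Gzme, Icos, Ifi203, Ifitm2, Ifitm3, Il4, Irf1, Irf4, Klrg1, Pdia6, Prf1, Rad50, Rnf187, Slc2a1, Tab2, Tcf7, Tinagl1, Tnfrsf1b, Tnfrsf25, Uhrf1). The groups, lists and loci were chosen with earlier results of these data known. Promoter windows came from RefSeq (GRCm38.p6), matched by symbol. Some genes are not reported here. The study's replicate libraries differed beyond sampling noise and were kept as separate libraries.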

Additional observations from a re-analysis of the deposited data

Results flagged for a closer look

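For 15 of the 23 genes examined for it, the response to IL-33 differed between STAT3-KO and WT cells. The test was limma's test of the difference (2 libraries a group, adjusted over all genes tested). Most of the 23 genes were chosen by the size of their WT change, which also enters this test. The values below are the STAT3-KO response minus the WT response, on the log2(FPKM + 1) scale, with the SE.

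Among the cytokine and secretion genes, the value was -2.22 ± 0.18 (adjusted p = 0.000181) for Il5, which differed by 6.52 in WT and 4.29 in STAT3-KO cells. Il13 gave -2.27 ± 0.23 (adjusted p = 0.00057) and Furin -3.69 ± 0.23 (adjusted p = 4.37e-05). All of these rose in both genotypes and by less in STAT3-KO cells. Mcpt8 gave -6.45 ± 0.30 (adjusted p = 1.72e-05). Its level in STAT3-KO cells was 0 and 0 FPKM in control and 0.246 and 0 with IL-33. Ifitm1 gave -3.32 ± 0.34 (adjusted p = 0.000626).

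Among receptors, the value was -2.32 ± 0.33 (adjusted p = 0.00259) for Il1rl1, -1.82 ± 0.32 (adjusted p = 0.00657) for Tnfrsf8 and -1.25 ± 0.17 (adjusted p = 0.00204) for Il1r2. Il17rb, the IL-25 receptor subunit, which fell in both genotypes, gave -1.19 ± 0.25 (adjusted p = 0.0136). Il1rl1 was at 389 and 359 FPKM in control and 78.5 and 92.4 with IL-33 in STAT3-KO cells.

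The values of the other genes follow. Gata3 gave -0.88 ± 0.12 (adjusted p = 0.00215), Stat3 -0.94 ± 0.21 (adjusted p = 0.0165) and Cpa3 -0.88 ± 0.20 (adjusted p = 0.0179). Gzmd gave -1.65 ± 0.27 (adjusted p = 0.00497), and it was listed at 0 in all IL-33 libraries of both genotypes. This value is therefore the difference between the control levels, 8.22 and 9.04 FPKM in WT and 32.6 and 26.2 in STAT3-KO cells. Gap43 gave 0.99 ± 0.19 (adjusted p = 0.00862), since it rose more in STAT3-KO cells, and Krt80 1.20 ± 0.31 (adjusted p = 0.0315). The direction for Krt80 reversed with a pseudocount of 0.1 (-0.34). Its level in STAT3-KO cells was 3.25 and 4.39 FPKM in control and 0 and 0.0952 with IL-33.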

How the results depend on the processing

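In WT cells 4425 genes were called, and 4143, 3763, 3237, 4244, 4068, 4282 and 4506 with a pseudocount of 0.1, without a filter, with a filter of 5 FPKM, after rescaling, from the 4 WT libraries alone, without a variance trend and with a gene length trend removed. Leaving out 1 library gave 2722 to 3655 calls (1125 to 1555 higher, 1597 to 2100 lower). The lone library of a group was then assumed to vary like the others. The replicate block gave 4406 calls in WT cells and 1862 for the difference of responses, against 1856 without it. Deviations of libraries with the same number correlated at -0.0789 to 0.0597, so the numbers were not taken to pair libraries. The difference of responses gave 1193 calls without a filter, and 837 to 2009 when 1 library was left out. It could not be fitted from the WT libraries alone. Of 307 named genes called in WT cells, 248 were called under every alternative run and 59 lost their call under at least 1, none with a change of sign. For Krt80 the difference of responses reversed to -0.34 (adjusted p = 0.747) with a pseudocount of 0.1, and the cause was not tested. Of 1080 list counts under alternatives, 152 moved by over 1.5 times. Depth limits genes near 0, where 3 reads in 1 kb stand for 0.151 to 0.189 FPKM, and 2 libraries a group limit all tests: a gene without a call may still differ.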

Other observations

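Granulocyte markers summed to 0.546 to 0.984 FPKM in control and 5.27 to 6.59 with IL-33 and macrophage and monocyte markers to 1.12 to 1.96 FPKM in control and 5.93 to 6.78 with IL-33, while Lyz2 was at 0 in both control libraries and in IL-33 library 2. Epithelial and stromal markers summed to 21.8 to 25.7 FPKM in control and 29.4 to 31.3 with IL-33.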
